A study of Mus musculus with 4 samples.

Results

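Genes that are read mainly from 1 parental copy, 8 in number, were followed across single cells of the mouse aorta: *Meg3*, *Kcnq1ot1*, *Rian*, *Igf2r*, *Plagl1*, *Cdkn1c*, *Peg3* and *Grb10*. Their rows were taken by symbol from the 16408 nuclear genes listed in the UMI tables, and all 8 were listed. *Meg3* and *Kcnq1ot1* were picked because earlier results of these data placed them with cells of high and of low UMI content, so how their levels run with UMIs per cell is given as a description without a test.

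The cells were sorted from digested aortas, after removal of the adventitia, as CD31+ CD45- TO-PRO-3- and processed by SORT-seq, in which single cells are lysed in separate wells, and the 3′ end of each transcript receives a barcode for the well with a unique molecular identifier (UMI) for the molecule. There were 4 mice, with 1 plate of 384 wells each. All carried floxed *Epas1* (Epas1fl/fl), the gene of a hypoxia-inducible transcription factor, and received tamoxifen at 6 weeks of age, with analysis 2 weeks later. The 2 mice labelled EC-KO also carried a Cre driven by the endothelial Cdh5 promoter and activated by tamoxifen, and the 2 labelled EC-WT were littermates without Cre. A well counted as a cell where nuclear genes had 1000 UMIs or more and mitochondrial genes no more than 25% of the UMIs outside the ERCC spike-ins. This kept 157 and 98 cells of mice 1 and 2 labelled EC-KO and 114 and 72 of mice 1 and 2 labelled EC-WT, 441 in all, and every list of 4 values below follows that order. The kept cells held 1088901, 851118, 648977 and 566088 UMIs, with medians of 5796, 7419, 3779 and 5752.5 per cell.

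The label with more kept cells, EC-KO with 255 against 186, is the opposite of the order that the study states. The study's cell numbers lie close to these with the labels exchanged, and an exchange was not tested. *Epas1* itself was at 2930, 3148, 3324 and 2351 CPM (UMIs per 1000000 nuclear UMIs). Tags from the 3′ end need not show the loss of an internal exon, so *Epas1* does not check the labels, and the mice are named here as labelled. *Pecam1*, the gene of CD31, had a UMI in 94.9% to 100% of the kept cells of each mouse, and *Ptprc*, the gene of CD45, had 1 UMI in mouse 1 labelled EC-KO and 0 in the others. In 21 cells (11, 5, 3 and 2) at least 1% of UMIs lay on 11 smooth muscle genes, and results that differ there are given apart. Mouse 2 labelled EC-KO and mouse 1 labelled EC-WT were read on 1 flow cell according to their files, and the other mice on 1 each of their own.

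Imprinted genes keep a mark of the parent they came from and are read from the maternal or the paternal copy. Many lie in clusters in which a long noncoding RNA read from 1 parental copy silences protein-coding neighbours on the same chromosome, and many act on growth and on the cell cycle. The tables sum both copies, so imprinting itself was not measured, and a UMI tags a molecule near its 3′ end, so levels are given in CPM and were not divided by transcript length. *Meg3* and *Rian* are long noncoding RNAs read from the maternal copy of 1 cluster on chromosome 12. *Kcnq1ot1* is a long noncoding RNA read from the paternal copy, antisense to *Kcnq1*, and *Cdkn1c*, a cyclin-dependent kinase inhibitor, is among the genes that it silences in cis. *Igf2r* encodes the receptor that clears IGF2, *Grb10* an adaptor that restrains insulin and IGF receptors, and *Plagl1* and *Peg3* zinc finger proteins.

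Of the 8 genes, *Kcnq1ot1* and *Meg3* had the most UMIs and the others were sparse. *Kcnq1ot1* had 15826, 5687, 4145 and 4631 UMIs, or 14534, 6682, 6387 and 8181 CPM, and among nuclear rows only *Rn45s* had a higher mean level over the 4 mice. Mouse 1 labelled EC-KO stood highest, and the other 3 mice lay between 6387 and 8181 CPM. *Meg3* had 382, 479, 288 and 182 UMIs, or 351, 563, 444 and 322 CPM. Mouse 2 labelled EC-KO was highest here and the labelled groups overlapped. *Grb10* was at 109, 153, 112 and 102 CPM and *Igf2r* at 99.2, 106, 111 and 110 CPM. Relative to its mean, *Igf2r* was the steadiest of the 8 between mice (106 ± 5.26 CPM, SD, n = 4). *Cdkn1c* had 65.2, 45.8, 61.6 and 47.7 CPM and *Plagl1* 47.8, 61.1, 23.1 and 31.8 CPM. *Rian* followed with 29.4, 22.3, 10.8 and 12.4 CPM from 32, 19, 7 and 7 UMIs, and *Peg3* came last with 8, 13, 7 and 3 UMIs. In this order *Grb10* and *Igf2r* overlapped over mice, as did *Cdkn1c* and *Plagl1*, *Plagl1* and *Rian*, and *Rian* and *Peg3*, while every mouse had more *Kcnq1ot1* than *Meg3* and more *Meg3* than *Grb10*.

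**Figure D1:**
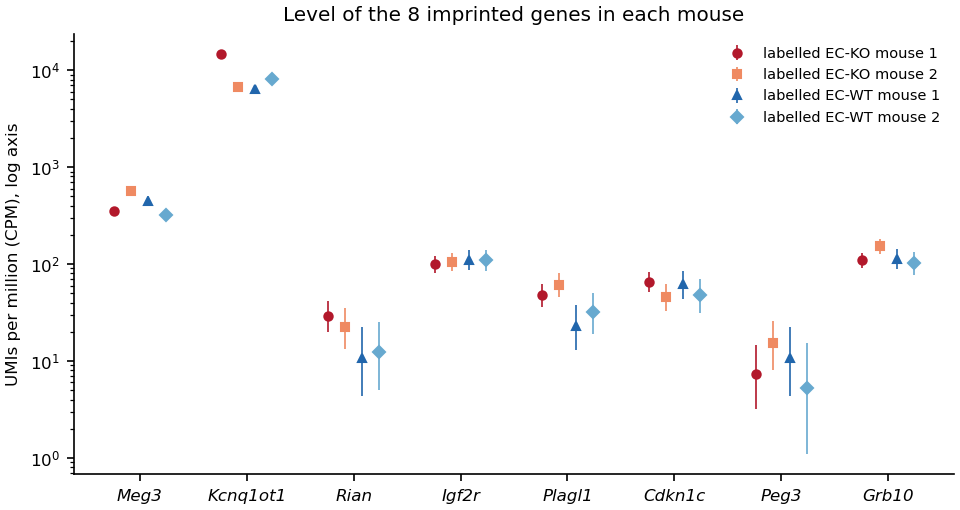
Level of each of the 8 imprinted genes in each mouse, in CPM of the kept cells on a log axis. Points are mice and bars are exact Poisson intervals at 95%, which cover counting error only. *Kcnq1ot1* lies between 6387 and 14534 CPM and *Peg3* between 5.30 and 15.3 CPM.

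In single cells, nearly every cell had *Kcnq1ot1* and about every other cell had *Meg3*. A *Kcnq1ot1* UMI was found in 100%, 96.9%, 96.5% and 95.8% of kept cells, and the median cell held 76, 40, 17.5 and 54 of them. The cell with the most held 419 in mouse 1 labelled EC-KO, and in 1 cell of mouse 2 labelled EC-KO 22.3% of all nuclear UMIs lay on *Kcnq1ot1*. A *Meg3* UMI was found in 51.6%, 70.4%, 43.9% and 50% of cells, with exact binomial intervals at 95% from 43.5% to 59.6% in mouse 1 labelled EC-KO and from 60.3% to 79.2% in mouse 2 labelled EC-KO. Most cells held few *Meg3* UMIs (medians of 1, 2, 0 and 0.5), and the highest held 39, 36, 51 and 21. With each cell thinned to 1000 UMIs, *Meg3* was found in 25.5%, 38.8%, 23.7% and 22.2% of cells and *Kcnq1ot1* in 98.7%, 90.8%, 92.1% and 94.4%, so *Meg3* was again most often found in mouse 2 labelled EC-KO. At that depth the 6 other genes were found in at most 16.7% of the cells of any mouse, and without thinning in at most 49.0%.

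*Meg3* was low in cells rich in smooth muscle RNA, and *Kcnq1ot1* was lower there by less. The 21 cells with at least 1% of UMIs on the smooth muscle list had 11 *Meg3* UMIs, or 55.0 CPM (exact Poisson interval 27.5 to 98.4), against 447 CPM in the other 420 cells (interval 423 to 471). By mouse these were 100, 0, 0 and 182 CPM against 371, 634, 449 and 326 CPM, lower in 4 of 4 mice. At 1000 UMIs per cell *Meg3* was found in 1 of these cells (4.76%) and in 28.6% of the others, and the medians of 5263 and 5618 UMIs were close. *Igf2*, which encodes a growth factor bound by *Igf2r*, had 3 UMIs in these cells, or 15 CPM, against 332 CPM. *Kcnq1ot1* had 6077 CPM there against 9838 CPM in all, and by mouse 11219, 1908, 2101 and 7265 CPM against 14796, 7288, 6438 and 8208 CPM, again lower in 4 of 4 mice. *Igf2r* had 115 against 105 CPM. *Grb10* had 70 against 124 CPM from 14 UMIs in these cells, *Cdkn1c* 25 against 58.2 CPM from 5 UMIs, *Rian* 5 against 21.7 CPM from 1 UMI and *Peg3* 10 against 9.81 CPM from 2 UMIs. These cells were set apart by other genes, and no test was run on the split. *Plagl1* had 0 UMIs in these cells (exact Poisson interval up to 18.5 CPM), against 46.4 CPM in the others. These intervals cover counting error only and not the spread between cells or mice, and the 11 *Meg3* UMIs lay in 2 of the 21 cells. The endothelial marker list summed to between 1978 and 5388 CPM in the cells rich in smooth muscle RNA and to between 10840 and 14167 CPM in the others, and the fibroblast list to 12371, 4243, 1576 and 9202 CPM against 2841, 1815, 1219 and 1541 CPM, higher in 4 of 4 mice. The part of mixed wells and of other cell types in these differences was not tested.

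The relation to UMIs per cell was read from 4 bins, of 1000 to 2000, 2000 to 4000, 4000 to 8000 and at least 8000 UMIs. The summed *Kcnq1ot1* level was highest in the lowest bin in both mice labelled EC-KO and not in those labelled EC-WT, and in mouse 2 labelled EC-KO a few cells carried this. In mouse 1 labelled EC-KO it was at 43783, 24487, 18288 and 9608 CPM from the lowest bin to the highest, and in mouse 2 labelled EC-KO at 44747, 12531, 10142 and 4411 CPM. In mouse 1 labelled EC-WT it was at 3158, 4517, 10295 and 5577 CPM, and in mouse 2 labelled EC-WT at 6637, 10702, 11572 and 7037 CPM. In these sums the lowest bin lay above every other bin in the mice labelled EC-KO, and below every other bin in those labelled EC-WT. On the log2 scale the highest over the lowest bin was −2.19, −3.34, 0.82 and 0.085, with a mean of −1.16 ± 1.94 (SD, n = 4), so the mean over mice does not describe any of them. The lowest bins held 16, 9, 30 and 13 cells, and in mouse 2 labelled EC-KO 1 of the 9 cells gave 48.7% of the *Kcnq1ot1* UMIs. In that bin of this mouse the mean cell held 64.6 *Kcnq1ot1* UMIs and the median cell 9, and along the bins its median cell held 9, 20.5, 45 and 47. In place of sums, the median of per-cell shares gave a log2 ratio of −1.81, −0.68, 1.16 and 1.41, so that the fall in mouse 2 labelled EC-KO was far smaller for its typical cell. Wells of 200 to 1000 UMIs, below the limit for cells, were at 72969, 6878, 2269 and 7023 CPM, which lay above the lowest bin in mouse 1 labelled EC-KO and mouse 2 labelled EC-WT and below it in the other two. Without the cell with the most *Kcnq1ot1* in each mouse and bin the 4 ratios were −2.13, −2.61, 1.21 and 0.43. From the bin of 2000 to 4000 UMIs upward, the ratio was −1.35, −1.51, 0.30 and −0.60, and mouse 2 labelled EC-WT was then also negative. The level in the highest bin did not separate the labels, with 9608 and 4411 CPM against 5577 and 7037 CPM.

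For *Meg3* the direction along the bins differed between mice and with the way it was summed. Its level was 261, 413, 419 and 306 CPM along the bins in mouse 1 labelled EC-KO and 693, 923, 619 and 519 CPM in mouse 2 labelled EC-KO. It was 224, 206, 664 and 437 CPM in mouse 1 labelled EC-WT and 1545, 143, 362 and 275 CPM in mouse 2 labelled EC-WT. The high first value of that last mouse rested on 27 UMIs in 13 cells, 21 of them in 1 cell. The highest over the lowest bin came to 0.23, −0.42, 0.96 and −2.49 on the log2 scale (mean −0.43 ± 1.48, SD, n = 4). Without the cell with the most *Meg3* in each mouse and bin it came to 0.85, 1.43, 0.56 and −0.64, and the mean turned positive (0.55). From the bin of 2000 to 4000 UMIs upward it was −0.43 and −0.83 with the label EC-KO and 1.08 and 0.94 with EC-WT. These signs split by label as those of *Kcnq1ot1* did over all bins, which was not tested. The bin of 2000 to 4000 UMIs held only 46, 38, 19 and 6 *Meg3* UMIs. In mouse 2 labelled EC-WT 5 of the 6 lay in 1 of 13 cells, and in mouse 2 labelled EC-KO 1 cell gave 42.1% of the 38. With read counts in place of UMIs, the highest over the lowest of the 4 bins was negative in each mouse (−0.030, −1.23, −0.32 and −2.78). The share of cells with a *Meg3* UMI was 18.8%, 33.3%, 33.3% and 30.8% in the lowest bin and 70.8%, 77.3%, 61.5% and 74.1% in the highest. In mouse 2 labelled EC-WT it was 15.4% from 2000 to 4000 UMIs, so the rise was not steady there. Thinned to 1000 UMIs, the lowest bins had 12.5%, 22.2%, 23.3% and 23.1% and the highest 31.3%, 36.4%, 23.1% and 22.2%. By rank, however, the *Meg3* share of a cell ran with its UMIs: Spearman's rho over cells was 0.22, 0.030, 0.25 and 0.34, positive in 4 of 4 mice. The rank takes in the cells with 0 *Meg3* UMIs, which were more frequent among shallow cells. The *Meg3* share also ran with that of the nuclear noncoding RNA *Malat1* (rho of 0.48, 0.16, 0.33 and 0.37), with the mitochondrial share (0.36, 0.15, 0.19 and 0.18) and with the *Pecam1* share (0.28, 0.18, 0.17 and 0.16), each positive in 4 of 4 mice.

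**Figure D2:**
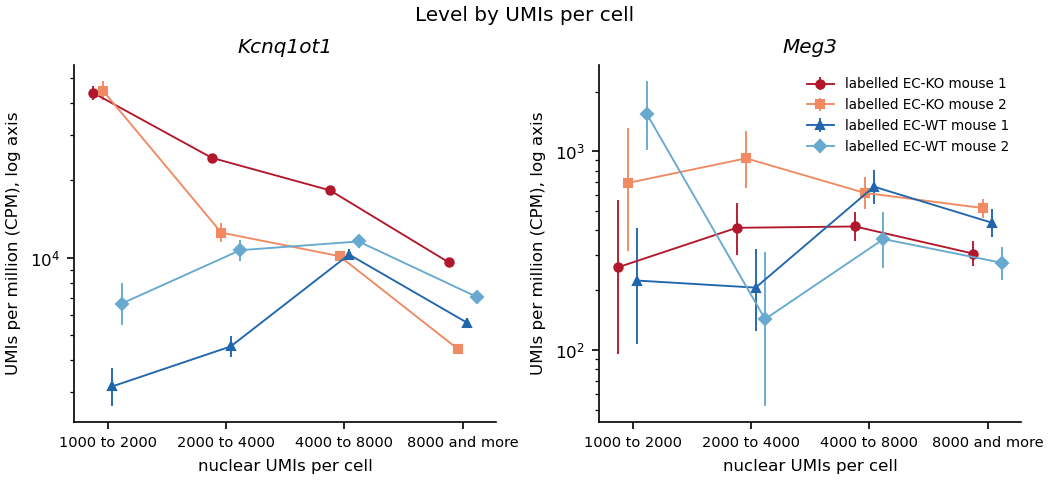
Level of *Kcnq1ot1* (left) and *Meg3* (right) by nuclear UMIs per cell, in CPM on log axes. Points are the summed cells of a mouse in a bin, and bars are exact Poisson intervals at 95%, for counting error only. *Kcnq1ot1* starts at 43783 and 44747 CPM in the mice labelled EC-KO and at 3158 and 6637 CPM in those labelled EC-WT, and *Meg3* runs from 143 to 1545 CPM over the 16 points.

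The same relation over cells, without bins, was summarised by a growth exponent: the slope of a Poisson regression of a gene's UMIs on the log of the cell's other nuclear UMIs, which is 1 where a gene keeps a constant share. Among 913 genes with at least 100 UMIs in every mouse the median of the mean exponent was 0.99, and the range from the 5th to the 95th percentile was 0.81 to 1.16. *Kcnq1ot1* had exponents of 0.25, 0.073, 0.99 and 0.67 (mean 0.50 ± 0.42, SD, n = 4), and this mean was the 6th lowest of the 913. By mouse *Kcnq1ot1* lay at percentiles of 0.88, 0.77, 55.0 and 3.50 of these genes, so not low in mouse 1 labelled EC-WT. The exponent of mouse 2 labelled EC-KO was 0.26 with a minimum of 2000 UMIs per cell. By rank, the *Kcnq1ot1* UMIs of a cell rose with its UMIs in each mouse, with Spearman's rho of 0.26, 0.37, 0.78 and 0.71. *Meg3* had exponents of 0.92, 0.58, 1.17 and 0.65 (mean 0.83 ± 0.27), and this mean, the 65th lowest, is inside the range above. By mouse *Meg3* lay at percentiles of 26.7, 2.52, 89.2 and 2.41. *Igf2r* had exponents of 1.03, 1.20, 1.03 and 0.97 (mean 1.06 ± 0.10) and *Grb10* of 1.15, 1.11, 1.03 and 0.83 (mean 1.03 ± 0.14), both near a constant share. The 4 remaining genes had under 50 UMIs in at least 1 mouse. Their mean exponents were 0.83 for *Rian*, 0.94 for *Plagl1*, 0.90 for *Cdkn1c* and 1.18 for *Peg3*. Over cells, Spearman's rho of the *Kcnq1ot1* share with UMIs per cell was −0.42, −0.32, 0.36 and 0.025 in the 157, 98, 114 and 72 cells. With the share of ERCC spike-ins, which is higher in wells with less cellular RNA, rho was 0.43, 0.35, −0.087 and 0.22. With the share of the endothelial gene *Pecam1* it was −0.35, −0.16, −0.31 and −0.18, negative in 4 of 4 mice. These values are descriptions, since cells of a mouse share a library and the share holds the cell's UMIs in its own denominator.

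**Figure D3:**
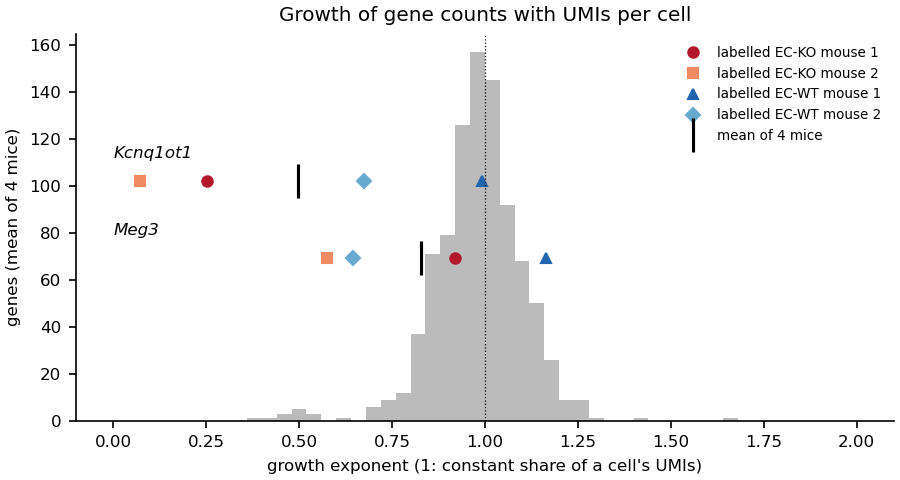
Growth exponents of 913 genes (grey histogram of the means of 4 mice, vertical axis in genes) and of *Kcnq1ot1* and *Meg3* in each mouse (points at arbitrary height, black bars for their means). The dotted line at 1 marks a constant share of a cell's UMIs. *Kcnq1ot1* runs from 0.073 to 0.99 and *Meg3* from 0.58 to 1.17.

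*Kcnq1ot1* also stood apart in which genes it moved with. Over the 16 sums of cells by mouse and bin, the genes most alike, by Pearson's r of log2(CPM + 10) centred within each mouse among 2942 genes with at least 200 UMIs, were *Gm17821* (0.996), *Grk4* (0.992), *A630089N07Rik* (0.976), *Vmn2r55* (0.969) and *Slfn8* (0.960). For *Meg3* they were *Prkcsh* (0.893), *Anapc1* (0.851), *Nenf* (0.838), *Atp5e* (0.816) and *Ube2l6* (0.798), each with at most 506 UMIs in all mice. The 16 points share mice, depth and the total by which each is divided, so no *P* is given. Of the genes alike to *Kcnq1ot1*, *Gm17821* is a processed pseudogene on chromosome 12, *A630089N07Rik* lies on chromosome 16 and *Grk4*, a G protein-coupled receptor kinase, on chromosome 5. *Vmn2r55* lies on chromosome 7 as *Kcnq1ot1* does, at chr7:12651706-12685003 of GRCm38. Vomeronasal receptor genes such as this are known for expression in sensory neurons, not in endothelium.

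Summed over the kept cells of a mouse, the ratios to *Kcnq1ot1* of 4 of these genes and of *A130077B15Rik*, which was among the 15 most alike over cells, lay close together in the 4 mice. For every 100 *Kcnq1ot1* UMIs there were 56.9, 58.1, 58.9 and 55.7 of *Gm17821*, 33.9, 33.6, 32.7 and 27.5 of *A630089N07Rik*, 17, 18.5, 19.6 and 17.6 of *Grk4*, 13.5, 12.1, 12.9 and 10.3 of *Vmn2r55* and 6.67, 7.79, 7.29 and 7.08 of *A130077B15Rik*. Over cells, Pearson's r of the UMI counts was 0.979, 0.977, 0.990 and 0.974 for *Gm17821*. The ratio of *Gm17821* stayed between 54.0 and 59.8 in every mouse in cells of 4000 UMIs and more, while *Kcnq1ot1* itself ran from 4411 to 18288 CPM over those bins and mice. The ratios of sparser genes varied more within mice: *A630089N07Rik* had 17 and 36.1 in the lower bins of mouse 1 labelled EC-WT, and *A130077B15Rik* ran from 2.59 to 7.82 in mouse 2 labelled EC-WT. *Meg3* had 2.41, 8.42, 6.95 and 3.93 UMIs per 100 of *Kcnq1ot1*, with Pearson's r of 0.055, 0.10, 0.18 and 0.19. The endothelial gene *Pecam1* had 30.3, 90.2, 94.6 and 56.2. Of 11 genes that were among the 15 most like *Kcnq1ot1* over cells and had an exponent, all 11 were also among the 15 lowest exponents, a count that their likeness to *Kcnq1ot1* largely fixes.

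**Figure D4:**
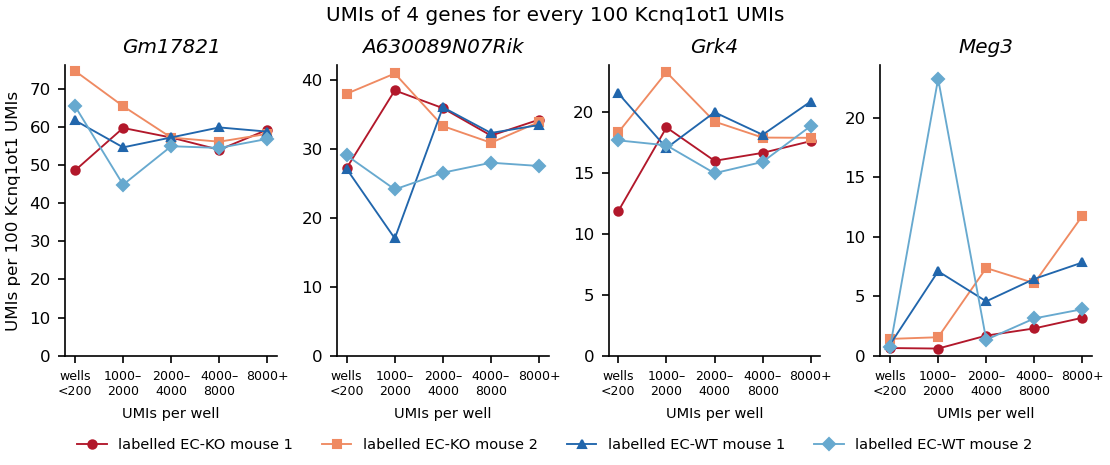
UMIs of *Gm17821*, *A630089N07Rik*, *Grk4* and *Meg3* for every 100 *Kcnq1ot1* UMIs (vertical axes from 0), in wells under 200 UMIs and in the 4 bins of kept cells, with 1 line per mouse. *Gm17821* stays between 44.8 and 74.6 throughout, while *Meg3* runs from 0.597 to 23.3.

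The *Kcnq1ot1* RNA is 93092 bases long in GENCODE M21 and is encoded at chr7:143203458-143296549 of GRCm38 on the minus strand. It holds 8 runs of 12 A and the *Meg3* RNA, of 14548 bases, holds 3, while 0.112% of genes have 3 or more. Over all genes the median length of the longest transcript is 1161 bases, and these counts of runs were not set against length. Whether UMIs came from such runs in place of the 3′ end was not tested. Parts of the *Kcnq1ot1* RNA also occur in transcripts of the genes that moved with it. Of the 15 genes most like it over cells, 13 were in the annotation, and 7 of these (53.8%) share a run of at least 30 bases with it in the same orientation, runs of low complexity left out. The same was true of 181 of 2837 genes compared (6.38%). In the opposite orientation it was true of 0 of the 13 and of 192 of the 2837 (6.77%). These 15 genes were named after their values were seen, and the shares are a description. Of the runs, 4 are shown, chosen as those held by the fewest other genes. They are read from *Kcnq1ot1* in its own orientation, 5′ to 3′, with 30 bases each and in lower case because every base is shared.
shared with A630089N07Rik: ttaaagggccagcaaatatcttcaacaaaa
shared with A130077B15Rik: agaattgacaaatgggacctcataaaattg
shared with Pot1b: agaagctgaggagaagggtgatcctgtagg
shared with Slfn9: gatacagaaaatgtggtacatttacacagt
They lie at chr7:143229016-143229045, chr7:143221136-143221165, chr7:143236283-143236312 and chr7:143220502-143220531 of GRCm38 on the minus strand. Transcripts of 4, 3, 3 and 3 of 55341 annotated genes hold them. The shared runs extend to 63, 49, 48 and 33 bases. A read from such a run could be placed in more than 1 gene, the authors' treatment of such reads is not given in the sources used here, and its part in the likeness was not tested. *Gm17821*, the gene most alike, shares at most 13 bases in the same orientation and 15 in the opposite one. Each *Kcnq1ot1* UMI rested on fewer reads than that of most genes: it had 3.81, 5.94, 5.87 and 6.80 reads per UMI against a median of 8.85, 16.8, 18.0 and 20.7 over genes with at least 100 UMIs in every mouse, and *Gm17821* had 3.42, 5.40, 5.34 and 6.14. *A130077B15Rik* had 1.84, 2.87, 2.73 and 3.11 and *Grk4* 4.75, 6.29, 4.75 and 7.17. *A630089N07Rik* (5.87, 10.5, 7.89 and 9.84) and *Vmn2r55* (9.42, 13.4, 12.8 and 19.1) were above *Kcnq1ot1* in every mouse. *Vmn2r55* was above the median in mouse 1 labelled EC-KO. *Meg3* had 7.30, 13.9, 14.4 and 18.0 reads per UMI.

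The wells that held almost no RNA gave *Kcnq1ot1* as well. In 204, 244, 210 and 259 wells with under 200 nuclear UMIs there were 624, 142, 107 and 289 *Kcnq1ot1* UMIs, or 47528, 10239, 11727 and 19964 CPM of those wells. In each mouse this was above the mean level of its kept cells. A *Kcnq1ot1* UMI was found in 79.9%, 34.0%, 19.5% and 41.3% of these wells. *Gm17821* had 48.6, 74.6, 61.7 and 65.4 UMIs there for every 100 of *Kcnq1ot1*. *Meg3* had 4, 2, 1 and 2 UMIs in them, or 305, 144, 110 and 138 CPM, below its level in kept cells in every mouse. Per well under 200 UMIs there were 3.06, 0.582, 0.510 and 1.12 *Kcnq1ot1* UMIs, against means of 101, 58.0, 36.4 and 64.3 per kept cell. In mouse 1 labelled EC-KO the 79.9% of these wells stands beside 100% of its kept cells. Whether these wells were empty or held damaged cells was not tested. The part of free RNA in the *Kcnq1ot1* UMIs of kept cells was not tested.

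Next, the mice labelled EC-KO were compared with those labelled EC-WT, with UMIs summed per mouse and edgeR's quasi-likelihood test over 8385 genes. Of the 8 imprinted genes, 7 passed the filter on low counts and *Peg3* did not. No member was called at an adjusted *P* of 0.05, against 0.119% of all genes tested (10, all higher with the label EC-KO). At an unadjusted *P* under 0.05 there were 2 of 7, *Plagl1* and *Rian*, against 6.6% of all genes, and DESeq2 had 0 by either count, against 0.143% and 2.22% of all genes. The median log2 fold change, EC-KO over EC-WT as labelled, was 0.31 over the 7 and −0.00535 over all genes tested. *Kcnq1ot1* and *Meg3* were chosen for another contrast, UMIs per cell, than the one tested here.

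*Plagl1*, a zinc finger transcription factor at chr10:13060504-13131694 on the plus strand of GRCm38, had 47.8 and 61.1 CPM with the label EC-KO and 23.1 and 31.8 CPM with the label EC-WT. The groups did not overlap, as for 36.4% of all genes tested, and the log2 fold change of 1.02 (SE 0.34) had an adjusted *P* of 0.535 in edgeR. *Rian*, at chr12:109603940-109661716 on the plus strand, had 29.4 and 22.3 against 10.8 and 12.4 CPM, again without overlap. Its log2 fold change was 1.20 (SE 0.48, adjusted *P* = 0.699 in edgeR), from 65 UMIs in all. *Igf2r*, at chr17:12682406-12769664 on the minus strand, was the third whose groups did not overlap, and its log2 fold change was −0.071 (SE 0.22), which in size is well within its error.

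*Kcnq1ot1* had a log2 fold change of 0.59 (SE 0.33, adjusted *P* = 0.779 in edgeR), with 14534 and 6682 against 6387 and 8181 CPM. The value was carried by mouse 1 labelled EC-KO, without which it was −0.11. Without mouse 2 labelled EC-WT it was 0.75 with an adjusted *P* of 0.0221 in edgeR, the only call of a member among the alternatives run (range of its adjusted *P* 0.0221 to 1.00), and the lone mouse of that label is then assumed to vary like the others. Between the pair on the same flow cell it was 0.065. Of the genes that moved with it over cells, *Gm17821* had a log2 fold change of 0.59 (SE 0.31), *Grk4* 0.51 (SE 0.28), *A130077B15Rik* 0.56 (SE 0.27), *A630089N07Rik* 0.77 (SE 0.31) and *Vmn2r55* 0.78 (SE 0.33), none called. *Meg3*, at chr12:109541001-109571726 on the plus strand, had 351 and 563 against 444 and 322 CPM and a log2 fold change of 0.28 (SE 0.24, adjusted *P* = 0.886 in edgeR), which was −0.061 without mouse 2 labelled EC-KO. *Grb10*, at chr11:11930508-12038683 on the minus strand, had 109 and 153 against 112 and 102 CPM (0.31, SE 0.23). *Cdkn1c*, at chr7:143458339-143461050 on the minus strand, had 65.2 and 45.8 against 61.6 and 47.7 CPM (0.067, SE 0.31). *Peg3*, at chr7:6703892-6730431 on the minus strand, had 31 UMIs and was not tested. None of these passed the test.

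**Figure D5:**
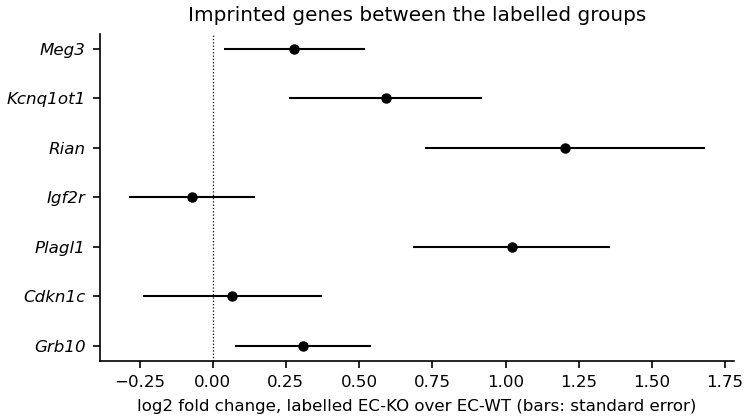
Log2 fold change of the 7 imprinted genes tested, EC-KO over EC-WT as labelled, with standard errors from edgeR's quasi-likelihood fit (2 mice per label). *Rian* (1.20) and *Plagl1* (1.02) lie farthest from 0 and no gene was called.

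Cells with *Rian* were more often cells with *Meg3*, its neighbour in the cluster on chromosome 12. Of 46 cells with a *Rian* UMI, 39 (84.8%) also had *Meg3*, against 197 of 395 cells without (49.9%). By mouse the shares were 83.3%, 93.3%, 57.1% and 100% against 47.5%, 66.3%, 43.0% and 45.5%, higher in 4 of 4 mice. Cells with *Rian* were also deeper, with a median of 9678 against 5289 UMIs. Within the bin of 8000 UMIs and more the shares were 96.2% of 26 cells against 66.4% of 119, and from 4000 to 8000 UMIs 81.8% of 11 against 57.9% of 121. From 2000 to 4000 UMIs they were 62.5% of 8 against 31.8% of 88, and under 2000 UMIs *Meg3* was found in 0 of 1 cell with *Rian* and in 29.9% of the 67 others. *Mirg*, a further noncoding RNA of this cluster, had 23 UMIs in all mice, and *Dlk1* and *Dio3*, its paternally read protein-coding genes, had 2 and 1. *Cdkn1c* was found in 23 of 73 cells with *Plagl1* (31.5%) and in 21.7% of the other cells, with medians of 8781 and 4917 UMIs. By mouse the shares were 46.4%, 35%, 0% and 21.4% against 21.7%, 24.4%, 19.4% and 22.4%, from 28, 20, 11 and 14 cells with *Plagl1*. They were higher in the mice labelled EC-KO and lower in those labelled EC-WT, and this difference was not tested. *Meg3* was also more often found in cells with *Cdkn1c* (68.0% against 49.1%, higher in every mouse), which lies on another chromosome. In cells with *Plagl1*, also on another chromosome, *Meg3* was found in 65.8% against 51.1%, but less often in mouse 1 labelled EC-WT. Cells with *Cdkn1c* were deeper too, with medians of 7958 and 4905 UMIs.

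The other imprinted genes were looked up from a list of 62, of which 51 were listed in the files and 19 passed the filter on low counts. Those 19 were *Gnas*, *Cd81*, *Igf2*, *Zrsr1*, *Peg13*, *Osbpl5*, *Ndn*, *Ube3a*, *Casd1*, *Sgce*, *Nap1l4*, *Commd1*, *Impact*, *Trappc9*, *Blcap*, *Tssc4*, *Airn*, *Kcnq1* and *Atp10a*. *Gnas*, which encodes the stimulatory G protein alpha subunit, led with 3222, 3488, 2852 and 3279 CPM, and *Cd81*, a tetraspanin, had 785, 931, 1032 and 857 CPM. *Igf2* had 421, 228, 393 and 134 CPM, with mouse 1 of each label above mouse 2, and was found in 43.3%, 30.6%, 43.9% and 19.4% of cells. Between the labels edgeR and DESeq2 each called 0 of the 19, against 0.119% and 0.143% of all genes, with a median log2 fold change of 0.15 and a range from −0.68 for *Trappc9* to 0.59 for *Sgce*. Of the others with a positive log2 fold change, *Osbpl5* had 0.42, *Ube3a* 0.35, *Igf2* 0.33, *Nap1l4* 0.33, *Airn* 0.30, *Impact* 0.28, *Kcnq1* 0.22, *Gnas* 0.17, *Casd1* 0.15, *Peg13* 0.12 and *Commd1* 0.077. Of those with a negative one, *Blcap* had −0.30, *Tssc4* −0.17, *Zrsr1* −0.145, *Atp10a* −0.12 and *Cd81* −0.11. At an unadjusted *P* under 0.05 DESeq2 had 0 (2.22% of all genes) and edgeR 1 (6.6% of all genes), *Ndn*, a growth-restraining gene of the melanoma antigen family, with 70.7 and 96.3 against 128 and 117 CPM (log2 fold change −0.53, SE 0.24, adjusted *P* = 0.749 in edgeR).

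Genes beside the noncoding RNAs differed widely in level. *Kcnq1*, the potassium channel gene that *Kcnq1ot1* overlaps on the other strand, had 26.6, 23.5, 26.2 and 17.7 CPM. *Airn*, the noncoding RNA antisense to *Igf2r*, had 20.2, 34.1, 20 and 24.7 CPM. Of 57 cells with *Airn*, 32 (56.1%) also had *Igf2r*, against 37.5% of the others, with medians of 7984 and 5310 UMIs. For *Grb10*, which lies on another chromosome than *Igf2r*, these shares were 52.5% and 31.2%, with medians of 8565 and 3927 UMIs. Whether reads were counted by strand is not given in the sources used here, so reads of *Kcnq1* and *Kcnq1ot1*, or of *Airn* and *Igf2r*, may have been exchanged where the genes overlap. Of further genes that lie on chromosome 7 as *Cdkn1c* does, *Phlda2* and *Slc22a18* had 1 and 21 UMIs. *Cd81*, *Osbpl5* and *Nap1l4* had 785 to 1032, 83 to 110.4 and 60.1 to 103 CPM over the mice.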

How the data were processed

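SORT-seq libraries of 4 mice were read from the tables that the authors deposited for each plate: UMI counts and read counts with PCR duplicates, by gene and well and not normalized. The authors also deposited estimated counts of transcripts (expected counts), made by correcting UMI counts for repeated identifiers. The deposited transcript counts followed from the UMI counts by the correction for 4096 identifiers to within 4.5e-13. The submitters' processing notes name BWA 0.7.15, GRCm38/mm10 and Seurat, and the handling of reads with several alignments is not given in the sources used here. Wells are named by number from 1 to 384 in each plate, so barcodes shared between libraries were not analysed here.

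Wells of 1000 or more nuclear UMIs and no more than 25% mitochondrial UMIs were kept, and ERCC rows were left out. No cells were clustered and no doublet caller was run. Levels are UMIs per 1000000 (CPM). Cells were thinned without replacement to 1000 UMIs for detection at a common depth. UMIs summed per mouse were compared in edgeR 4.0.16 (R 4.3.3) with TMM normalization, its filter on low counts, the quasi-likelihood test and Benjamini-Hochberg adjustment, over all genes. DESeq2 1.42.0 was the alternative. The spread between 2 mice per label is the only error in these tests. Exact Clopper-Pearson and Poisson intervals at 95% (counting error only) came from scipy 1.17.1 under Python 3.11.15. Poisson slopes were fitted with numpy. Tables used pandas 2.3.3 and numpy 2.4.6 and the plots matplotlib 3.10.9. Both the slopes and the edgeR test were tested on simulated data. Shared runs of 30 bases were searched in GENCODE M21 transcripts, leaving out runs with under 12 distinct words of 3 bases.

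The genes named are the 8 members, the imprinted genes of a hand-written list that passed the filter, the 5 genes most like *Meg3* and *Kcnq1ot1*, and *Epas1*, with the markers *Pecam1* and *Ptprc*. *Malat1*, *Rn45s*, *Mirg*, *Dlk1*, *Dio3*, *Phlda2*, *Slc22a18* and the genes that share sequence were named after their values were seen. The members, lists and tests were chosen with earlier results of these data known. Alternatives were other UMI minimums, no mitochondrial limit, transcript and read counts, a block for the replicate number, looser and stricter filters on low counts, cells without smooth muscle RNA, without the largest cells, thinned or of middle depth, each mouse left out, and the pair on the same flow cell. Leaving out *Rn45s* or the top cell of each bin and the median of per-cell shares were added after seeing the data.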

Additional observations from a re-analysis of the deposited data

Results flagged for a closer look

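The change of *Kcnq1ot1* from cells of 1000 to 2000 UMIs to cells of 8000 UMIs and more had opposite signs under the 2 labels. On the log2 scale it was −2.19 and −3.34 in the mice labelled EC-KO and 0.82 and 0.085 in those labelled EC-WT. With 2 mice per label the difference was not tested, and mouse 2 labelled EC-WT lies close to 0. It turned to −0.60 with 2000 to 4000 UMIs as the lowest bin and to −0.030 without the cells rich in smooth muscle RNA. In mouse 2 labelled EC-KO the median of per-cell shares gave −0.68. Mouse 2 labelled EC-KO and mouse 1 labelled EC-WT shared a flow cell, and the part of the flow cell was not tested.

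Wells under 200 UMIs, which were not counted as cells, held 624, 142, 107 and 289 *Kcnq1ot1* UMIs in the 4 mice, above a set floor of 3 UMIs. *Meg3* had 4 UMIs there in mouse 1 labelled EC-KO.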

How the results depend on the processing

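The number of genes called between the labels (10) depended on the processing. It was 22 with a minimum of 2000 UMIs, 17 without the mitochondrial limit, 16 in cells of 2000 to 8000 UMIs, 2 in thinned cells, 115 without a filter on low counts, and 0 both without the cells rich in smooth muscle RNA and without cells over 3 times the median UMIs. With 1 mouse left out it lay between 4 and 129: 21 without mouse 1 and 4 without mouse 2 labelled EC-KO, and 129 without mouse 1 and 117 without mouse 2 labelled EC-WT. The 10 were all higher with the label EC-KO, but 50 of the 129, 19 of the 117 and 22 of the 115 were lower. The number of members called was 0 in every alternative run except 1, *Kcnq1ot1*, without mouse 2 labelled EC-WT (range 0 to 1 with a mouse left out).

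Of 120 fold changes of members under alternatives, 109 kept their direction and, where tested, their side of the threshold. Of the rest, 8 changed direction and 1 was stronger, *Kcnq1ot1* at 0.75 without mouse 2 labelled EC-WT. The last 2 moved in size in the pair on the same flow cell, which was not tested: *Kcnq1ot1* to 0.065 and *Plagl1* to 1.40. *Grb10* turned to −0.64 in thinned cells and −0.16 in cells of 2000 to 8000 UMIs, and *Igf2r* to 0.51 in thinned cells. *Cdkn1c* turned to −0.43 in the pair on the same flow cell, −0.25 without mouse 1 labelled EC-KO and −0.12 without mouse 2 labelled EC-WT. *Kcnq1ot1* turned to −0.11 without mouse 1 labelled EC-KO and *Meg3* to −0.061 without mouse 2 labelled EC-KO. With a mouse left out *Meg3* ranged from −0.061 to 0.565, *Kcnq1ot1* from −0.11 to 1.07 and *Cdkn1c* from −0.25 to 0.316. In the same fits *Grb10* ranged from 0.091 to 0.518 and *Igf2r* from −0.104 to −0.043. *Kcnq1ot1* was highest in thinned cells (1.28). *Rian* and *Plagl1* stayed positive wherever they had a fold change (0.95 to 1.42 and 0.82 to 1.40). The 1.40 came from the untested pair on the same flow cell, and the highest *Plagl1* value in a tested setting was 1.23. The cause of these shifts was not tested.

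With the replicate number as a block, 8 genes and 0 members were called. Same-numbered mice did not deviate together (correlation over genes −0.0455), so the numbers were not read as pairs. The mean ratio of the highest to the lowest bin ranged from −1.82 to 0.02 for *Kcnq1ot1* and from −1.09 to 0.55 for *Meg3*, so its sign was not stable for either gene. The median of per-cell *Kcnq1ot1* shares gave 0.02, with −1.81 and −0.68 in the mice labelled EC-KO and 1.16 and 1.41 in those labelled EC-WT. Counts under 50 UMIs in at least 1 mouse limit what can be read from *Rian*, *Peg3*, *Plagl1* and *Cdkn1c*.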
